A study of Mus musculus with 14 samples.

Results

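The miR-7 family comprises the mature arms of miR-7a and miR-7b, and it was followed across 14 small RNA libraries of mouse dorsal root ganglia (DRG), in which the somata of primary sensory neurons lie. Members were chosen by name, as every listed arm of every copy of miR-7a and miR-7b. No measured value entered this rule, though earlier results of these data were known when it was set. This gave 5 of the 1123 mature miRNAs listed in each library: miR-7a-5p, miR-7b-5p, miR-7a-1-3p, miR-7a-2-3p and miR-7b-3p. Of these, 3 reached at least 5 CPM (read counts scaled by library size) in at least 3 libraries, as did 638 miRNAs in all. The other two, miR-7a-2-3p and miR-7b-3p, did not reach 5 CPM in any library.

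The libraries came from the inbred strains C57BL/6 (5 naive, 3 injured) and CAST/Ei (3 naive, 3 injured), with no transgene or engineered allele named in the labels. Injured animals were adult males of 8 to 10 weeks in which the left sciatic nerve, which carries the peripheral axons of lumbar DRG neurons, was crushed for 30 s. Age and sex are recorded with the injured animals only, and neither the interval from crush to dissection nor the ganglia taken is given in the sources used here. Naive animals carry no such treatment in the labels, and no sham operation is named. The comparisons address how miRNA levels respond to nerve injury in each strain and how the strains differ before and after it.

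Libraries held 4007706 to 15642360 reads assigned to the listed miRNAs, and 3 reads, taken as the floor of detection, were worth 0.202 to 0.760 CPM. Shares of reads below refer to these totals. All 11 listed neuronal miRNAs, among them miR-124-3p and the sensory miRNAs miR-183-5p, miR-182-5p and miR-96-5p, were past the abundance filter and present in every library. The libraries C57BL/6 naive 4 and 5 stood apart from the rest. Over the 638 kept miRNAs their Spearman correlation with the other 12 libraries was 0.871 to 0.926, against 0.951 with each other and 0.925 to 0.993 among the other 12. The tests of C57BL/6 naive are therefore given with and without them where the value moved. The submitters describe the libraries within each group as biological replicates. No label names the animals behind them, so the p-values measure the spread between these libraries.

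miR-7 is an old and highly conserved animal miRNA that is enriched in neurons and neuroendocrine cells. Like other miRNAs it pairs through its seed, bases 2 to 8 of the mature strand, with messenger RNAs that Argonaute then represses, and the EGF receptor is a well-studied target. Its best-known partner is the circular RNA Cdr1as, which carries many miR-7 sites and, in neurons, stabilises miR-7. miR-671 pairs almost fully with Cdr1as and directs its cleavage, so miR-671 was followed beside the family.

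The mature sequences show which members can share targets and how little separates miR-7a-5p from miR-7b-5p. All 5 arms were found by name in the RefSeq set (GRCm38.p6), and the seed is in capitals.
miR-7a-5p: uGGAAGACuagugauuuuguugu
miR-7b-5p: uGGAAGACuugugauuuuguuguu
miR-7a-1-3p: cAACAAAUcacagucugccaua
miR-7a-2-3p: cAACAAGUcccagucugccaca
miR-7b-3p: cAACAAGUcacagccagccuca
The 5p arms share the seed GGAAGAC, and they alone carry it among the 918 of 1123 listed miRNAs with a reference sequence. Counted from 1 at the 5′ end, miR-7b-5p differs from miR-7a-5p by A10U among the 23 bases compared, and it has 1 base more at its 3′ end. The 3p arms differ inside the seed. miR-7a-2-3p and miR-7b-3p share the seed AACAAGU, and the change from miR-7a-1-3p to each of them within the seed is A7G. How the authors assigned reads that fit both 5p arms is not given in the sources used here, so the split between miR-7a-5p and miR-7b-5p is uncertain to that extent.

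The hairpins show why 1 mature name covers 2 genes. In each, the 5p and 3p arms are in capitals.
Mir7-1: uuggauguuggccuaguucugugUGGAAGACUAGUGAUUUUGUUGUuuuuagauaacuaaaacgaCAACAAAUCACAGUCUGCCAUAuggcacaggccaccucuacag
Mir7-2: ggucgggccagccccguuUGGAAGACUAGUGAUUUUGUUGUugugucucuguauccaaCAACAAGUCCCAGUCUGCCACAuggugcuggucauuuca
Mir7b: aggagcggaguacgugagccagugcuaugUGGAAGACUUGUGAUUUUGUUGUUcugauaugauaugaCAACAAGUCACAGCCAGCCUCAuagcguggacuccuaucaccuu
The miR-7a-5p arm is identical in Mir7-1 and Mir7-2, so its reads cannot be assigned to either gene, whereas each 3p arm names its own hairpin. Mir7-1 lies at chr13:58392779-58392886 on the minus strand (GRCm38), in an intron of Hnrnpk, which encodes an RNA-binding protein, on the same strand. All 12 annotated Hnrnpk transcripts that span it hold it in an intron (GENCODE M21). Mir7-2 lies at chr7:78888277-78888373 on the plus strand, between genes, with Aen 7481 bp away on one side and Det1 41014 bp away on the other. Mir7b lies at chr17:56242988-56243098 on the plus strand, also between genes, with Fem1a 13712 bp and Dpp9 24083 bp away.

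The family took 0.0907% to 0.254% of a library's reads assigned to the listed miRNAs. miR-7a-5p was the main arm in every library, with 79.4% to 89.9% of the family's reads, and miR-7b-5p followed with 6.20% to 13.7%. A small RNA read covers a whole mature miRNA, so levels in CPM are given side by side without a length correction. No correction was made for how well each sequence was captured. miR-7a-5p averaged 1238 CPM over the 14 libraries and ranked 58 to 111 of 1123 miRNAs. miR-7b-5p averaged 140.5 CPM and ranked 167 to 288, and miR-7a-1-3p averaged 73.2 CPM and ranked 243 to 426. The remaining arms were scarce. miR-7a-2-3p averaged 0.836 CPM from 114 reads in all, and miR-7b-3p 1.18 CPM from 143 reads. Both 3p arms from Mir7-2 and Mir7b were thus near the floor, while the 3p arm of Mir7-1 had 9522 reads in all.

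**Figure D1:**
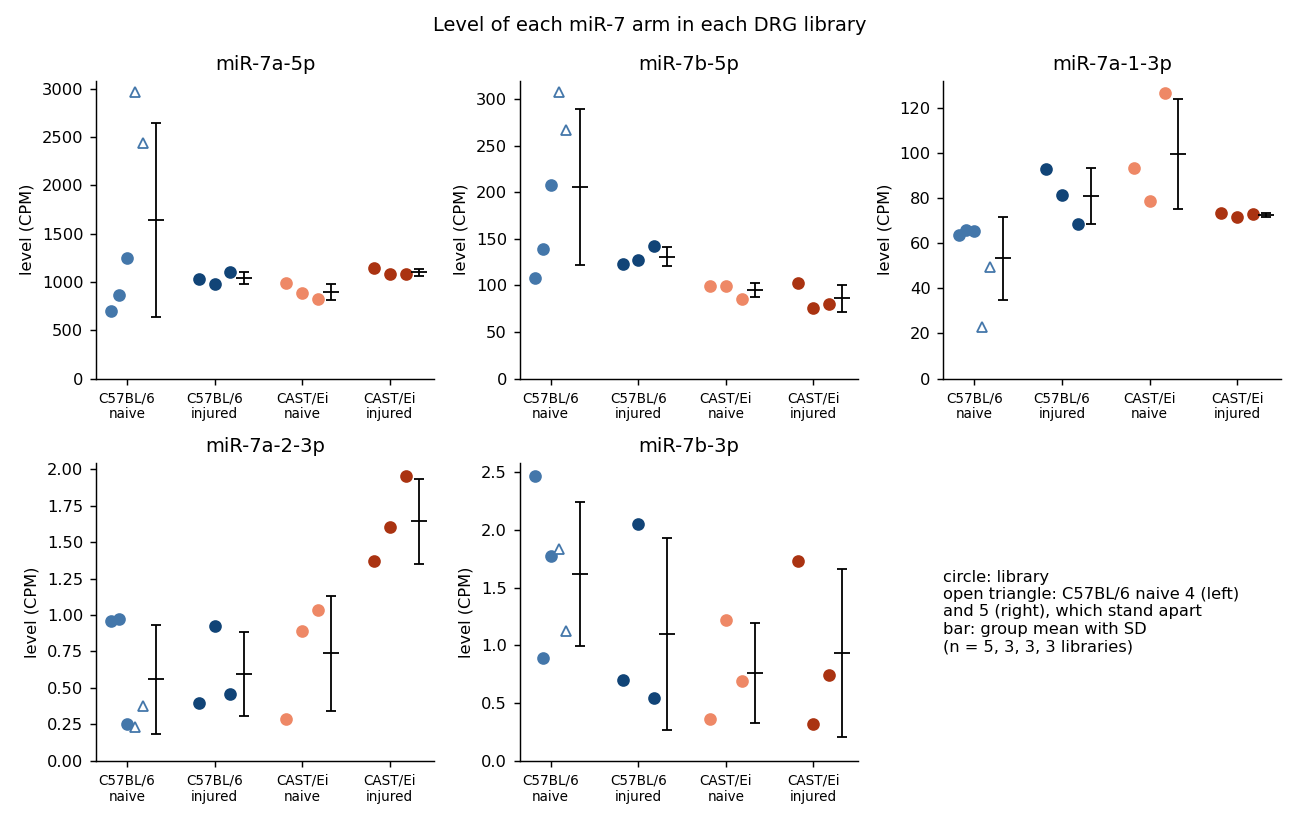
Level of each miR-7 arm in CPM (linear axis) in each of the 14 libraries, by strain and condition; circles are libraries, open triangles are C57BL/6 naive 4 and 5, and the bar is the group mean with its SD (n = 5, 3, 3 and 3). miR-7a-5p is high in the open triangles (2962 and 2440.4 CPM), miR-7b-5p is below 104 CPM in all CAST/Ei libraries, and miR-7a-2-3p is highest in CAST/Ei injured.

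miR-7b-5p was lower in CAST/Ei, by a test that passed narrowly in naive DRG and not in injured DRG. In C57BL/6 naive libraries 1 to 5 it stood at 108, 139, 208, 308 and 267 CPM, and in C57BL/6 injured at 123, 127 and 142. In CAST/Ei naive it stood at 99.5, 99.5 and 86.0 CPM, and in CAST/Ei injured at 103, 76.1 and 79.6. Every one of the 6 CAST/Ei libraries was below every one of the 8 C57BL/6 libraries. The group means were 206 ± 83.9 CPM (SD, n = 5) in C57BL/6 naive and 131 ± 10.1 (n = 3) in C57BL/6 injured. CAST/Ei naive averaged 95 ± 7.82 CPM (n = 3), and CAST/Ei injured 86.2 ± 14.6 (n = 3). In this order C57BL/6 naive and injured overlapped, as did CAST/Ei naive and injured. The gap between the strains was narrow, from 103 CPM in CAST/Ei injured 1 to 108 in C57BL/6 naive 1. As a share of reads, these libraries had 0.01133% and 0.01146%.

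In naive DRG, miR-7b-5p was lower in CAST/Ei by limma on log2(CPM + 1), with a log2 difference of -1.01 ± 0.31 (SE, 95% interval -1.67 to -0.35, adjusted p = 0.0484). Of the 638 miRNAs tested 11.1% passed in that comparison, and 7.05% were lower in CAST/Ei with no overlap between the naive groups. This call rests on C57BL/6 naive 4 and 5, which had the highest miR-7b-5p of all libraries. Without them C57BL/6 naive averaged 152 ± 51.2 CPM (n = 3), the difference was -0.62 and the adjusted p was 0.103. With the replicate number as a block it was also -0.62, with an adjusted p of 0.10. In that fit numbers 4 and 5, which no other group has, carry no weight in the difference. The call was lost without 4 alone (adjusted p = 0.0812) or 5 alone (0.0739), and also without any 1 of 9 other libraries (adjusted p 0.0654 to 0.148): the 3 of CAST/Ei naive and the 6 injured ones. It held without C57BL/6 naive 1, 2 or 3.

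In injured DRG the difference was -0.61 ± 0.35 (95% interval -1.35 to 0.13) and did not pass (adjusted p = 0.696). The 3 CAST/Ei injured libraries were below the 3 C57BL/6 injured ones, which held for 20.5% of the 638 miRNAs, and 3.29% passed the test there. Averaged over naive and injured DRG, a comparison added after the values were seen, the strain difference in miR-7b-5p was -0.81 ± 0.23 (95% interval -1.30 to -0.31, adjusted p = 0.0460 by limma). For this average 7.99% of miRNAs passed, and 2.82% (18 miRNAs) were lower in all CAST/Ei than in all C57BL/6 libraries. Without C57BL/6 naive 4 and 5 it was -0.61 with an adjusted p of 0.0244. It missed the threshold without any 1 of the 6 injured or 3 CAST/Ei naive libraries (adjusted p 0.0653 to 0.125) and held without any 1 of the C57BL/6 naive libraries.

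No strain difference in miR-7a-5p passed the test. Its level was 702, 867, 1248, 2962 and 2440.4 CPM in C57BL/6 naive 1 to 5 and 1034, 975 and 1101 in C57BL/6 injured. It was 986, 888 and 823 CPM in CAST/Ei naive and 1139.8, 1079 and 1081 in CAST/Ei injured. Outside C57BL/6 naive 4 and 5, the other 12 libraries lay between 702 and 1248 CPM. The means were 1644 ± 1003 CPM (SD, n = 5), 1037 ± 62.9, 899 ± 81.8 and 1099.9 ± 34.6 (n = 3 each) in the same order of groups. C57BL/6 naive spanned all the other groups, and the remaining neighbours in the order of means, CAST/Ei injured, C57BL/6 injured and CAST/Ei naive, each overlapped the next.

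The strain difference in miR-7a-5p was -0.65 ± 0.38 in naive DRG (95% interval -1.46 to 0.17, adjusted p = 0.265 by limma) and 0.09 ± 0.43 in injured DRG (-0.83 to 1.0, adjusted p = 0.985). Without C57BL/6 naive 4 and 5 the naive value was -0.02 (95% interval -0.46 to 0.41, adjusted p = 0.946). Without naive 4 alone it was -0.38 (adjusted p = 0.455). With DESeq2 on all libraries it was -1.01 (adjusted p = 0.0633), and it did not pass in any of 27 alternatives. The intervals leave room for moderate differences in either direction. Averaged over both conditions it was -0.28 ± 0.29 (adjusted p = 0.567), and 0.0307 without naive 4 and 5 (adjusted p = 0.900).

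Because both 5p arms come from the same library, their ratio does not depend on how the library was scaled. miR-7b-5p stood at 15.4%, 16.1%, 16.7%, 10.4% and 10.9% of miR-7a-5p in C57BL/6 naive 1 to 5. It stood at 11.9%, 13.1% and 12.9% in C57BL/6 injured, 10.1%, 11.2% and 10.4% in CAST/Ei naive, and 9.03%, 7.06% and 7.36% in CAST/Ei injured. The CAST/Ei injured libraries were the lowest 3 of the 14. C57BL/6 naive 4 and 5, in which both arms were high, had ratios inside or beside the CAST/Ei naive range.

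In injured DRG the log2 ratio differed by -0.69 between CAST/Ei and C57BL/6 (exact two-sided permutation p = 0.1, the smallest that 3 against 3 libraries allow; adjusted p = 0.2 over 12 ratio tests). The injured groups did not overlap. As a share of reads from both 5p arms, the Wilson 95% intervals of single libraries ran from 6.04% to 8.75% in CAST/Ei injured and from 10.1% to 12.2% in C57BL/6 injured. Such intervals cover counting error only. In naive DRG the difference was -0.36 (exact permutation p = 0.214, adjusted p = 0.367), and without C57BL/6 naive 4 and 5 it was -0.60 (adjusted p = 0.2). Within CAST/Ei the difference between injured and naive was -0.44 with no overlap (exact permutation p = 0.1, adjusted p = 0.2), and within C57BL/6 the difference was -0.11 (exact permutation p = 0.571, adjusted p = 0.623). Without naive 4 and 5 the C57BL/6 difference was -0.34 (adjusted p = 0.2).

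**Figure D2:**
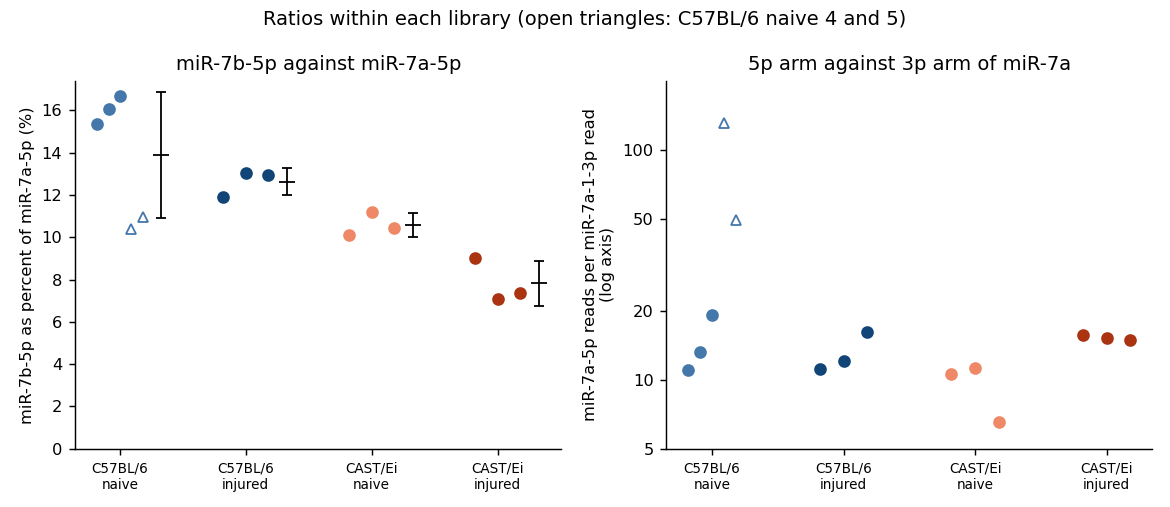
Left, miR-7b-5p as a percent of miR-7a-5p in each library (linear axis from 0, bars are group mean and SD); right, miR-7a-5p reads per miR-7a-1-3p read (log axis). The CAST/Ei injured libraries are the lowest on the left at 7.06% to 9.03%, and C57BL/6 naive 4 and 5 are the highest on the right at 131 and 49.5 reads.

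No miR-7 arm passed the test for injury in either strain. In C57BL/6, 3.13% of the 638 miRNAs passed and the median log2 difference of all was 0.12. In CAST/Ei, 1.1% passed and the median was -0.09. For miR-7a-5p the injury difference in C57BL/6 was -0.44 ± 0.38 (95% interval -1.26 to 0.38, adjusted p = 0.510 by limma). Without C57BL/6 naive 4 and 5 it turned to 0.18 (adjusted p = 0.647). In CAST/Ei it was 0.29 ± 0.43 (-0.62 to 1.21, adjusted p = 0.922), where the 3 injured libraries were above the 3 naive ones, as were those of 10.2% of all miRNAs. For miR-7b-5p it was -0.55 ± 0.31 in C57BL/6 (-1.21 to 0.11, adjusted p = 0.310) and -0.15 ± 0.35 in CAST/Ei (-0.89 to 0.59, adjusted p = 0.946), with overlap in both strains. The C57BL/6 value without naive 4 and 5 was -0.16 (adjusted p = 0.725). The CAST/Ei value changed sign under other scalings of the libraries, to 0.11 when every library was scaled to the same total, where the median of all miRNAs moved from -0.09 to 0.15.

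miR-7a-1-3p, the star strand of Mir7-1, went opposite ways after injury in the 2 strains without passing the test. It stood at 63.4, 65.8, 65.1, 22.6 and 49.3 CPM in C57BL/6 naive 1 to 5 and at 93.0, 81.1 and 68.5 in C57BL/6 injured, so that all injured libraries were above all naive ones. In CAST/Ei naive it stood at 93.1, 78.7 and 127 CPM and in CAST/Ei injured at 73.1, 71.3 and 72.8, so that all injured libraries were below all naive ones. As a share of reads the CAST/Ei groups overlapped, with 0.00822% in CAST/Ei injured 2 and 0.00811% in CAST/Ei naive 2. Means were 53.2 ± 18.4 (SD, n = 5), 80.9 ± 12.3, 99.5 ± 24.5 and 72.4 ± 0.960 CPM (n = 3 each).

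The injury difference in miR-7a-1-3p was 0.68 ± 0.33 in C57BL/6 (95% interval -0.02 to 1.37, adjusted p = 0.223 by limma) and -0.43 ± 0.37 in CAST/Ei (-1.20 to 0.35, adjusted p = 0.838). Over all alternatives the CAST/Ei value ran from -0.58 to -0.16. A separation in CPM was seen for 8.62% of miRNAs upward in C57BL/6 and 16.5% downward in CAST/Ei, and the share with both was not counted. The difference between the strains' injury effects was -1.10 ± 0.49 (95% interval -2.15 to -0.06, unadjusted p = 0.0397, adjusted p = 0.529). For this interaction 0% of the 638 miRNAs passed with limma, with 52 at an unadjusted p under 0.05, and 1 passed with edgeR and 9 with DESeq2. The median interaction of all 638 was -0.20. Without C57BL/6 naive 4 and 5 the miR-7a-1-3p interaction was -0.73 (adjusted p = 0.437) and its C57BL/6 injury difference 0.30 (adjusted p = 0.468). For miR-7a-5p the interaction was 0.73 (-0.49 to 1.96, adjusted p = 0.593) and for miR-7b-5p 0.40 (-0.59 to 1.39, adjusted p = 0.719). Without those 2 libraries these were 0.11 (adjusted p = 0.873) and 0.01 (adjusted p = 0.982).

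Between the strains, miR-7a-1-3p was higher in CAST/Ei naive than in every C57BL/6 naive library, as were 9.4% of miRNAs. The log2 difference was 0.96 ± 0.33 (95% interval 0.26 to 1.65) and did not pass (adjusted p = 0.0658 by limma). Without C57BL/6 naive 4 and 5 it was 0.58 (adjusted p = 0.0837), and without C57BL/6 naive 3 it was 1.05 and passed (adjusted p = 0.0400). In injured DRG it was -0.15 ± 0.37 (adjusted p = 0.985).

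**Figure D3:**
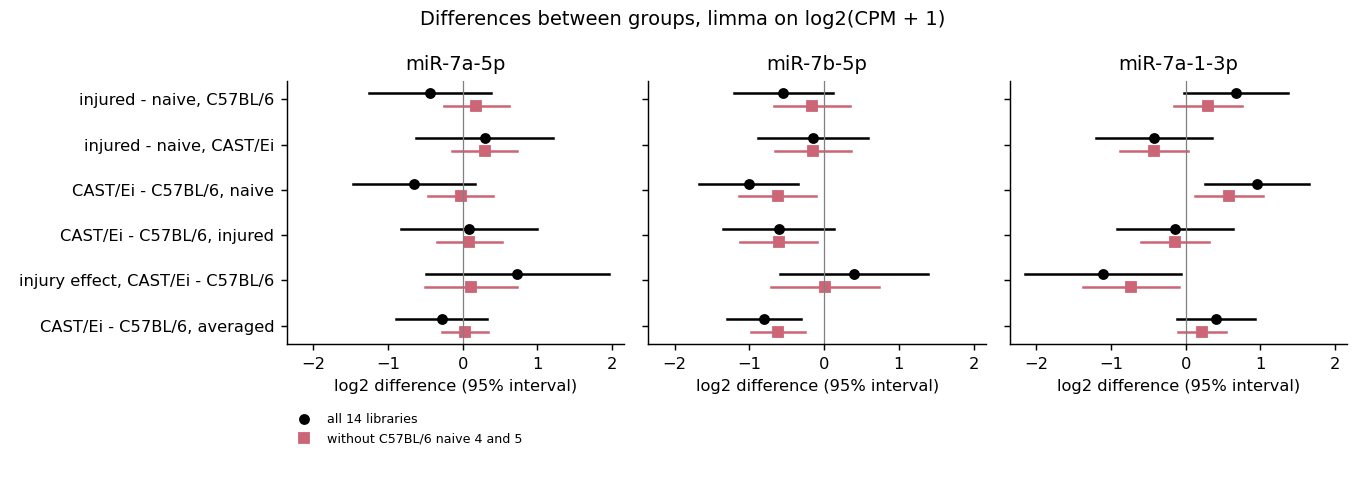
Log2 differences of the 3 arms past the abundance filter, with 95% intervals, for each comparison, by limma on log2(CPM + 1); black circles use all 14 libraries and red squares leave out C57BL/6 naive 4 and 5. The miR-7b-5p strain differences lie below 0 in both fits (-1.01 and -0.62 in naive DRG), and the miR-7a-5p injury difference in C57BL/6 moves from -0.44 to 0.18 without those libraries.

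The arms of miR-7a did not keep a fixed ratio. There were 11.1, 13.2, 19.2, 131 and 49.5 miR-7a-5p reads per miR-7a-1-3p read in C57BL/6 naive 1 to 5, and 11.1, 12 and 16.1 in C57BL/6 injured. The ratio was 10.6, 11.3 and 6.51 in CAST/Ei naive and 15.6, 15.1 and 14.9 in CAST/Ei injured. Naive 4 and 5 were far above every other library, since the 5p arm was high and the 3p arm low in them. In CAST/Ei the log2 ratio of 3p to 5p arm differed by -0.72 between injured and naive with no overlap (exact permutation p = 0.1, adjusted p = 0.2). The other 3 comparisons of this ratio had exact permutation p-values of 0.0714 to 0.4. None passed after adjustment, which groups of this size did not allow. In C57BL/6 the difference between injured and naive was 1.12, and in naive DRG that between the strains was 1.60. Without naive 4 and 5 these were 0.12 and 0.61. miR-7a-5p also comes from Mir7-2, so this ratio mixes 2 hairpins.

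The scarce 3p arms were below the abundance filter. miR-7a-2-3p, the arm that is specific to Mir7-2, stood at 0.959, 0.972, 0.253, 0.230 and 0.376 CPM in C57BL/6 naive and at 0.398, 0.924 and 0.455 in C57BL/6 injured. It stood at 0.290, 0.890 and 1.03 CPM in CAST/Ei naive and at 1.37, 1.61 and 1.95 in CAST/Ei injured. All 3 CAST/Ei injured libraries were above the other 11, as were those of 1.16% of the 1123 listed miRNAs. There were 54 reads in that group against 24, 18 and 18 in C57BL/6 naive, C57BL/6 injured and CAST/Ei naive. When all miRNAs were fitted without a filter, limma gave 0.63 for injury in CAST/Ei (adjusted p = 0.770) and 0.74 for strain in injured DRG (adjusted p = 0.283), neither of which passed. In 3 libraries miR-7a-2-3p was at or under the floor of 3 reads. miR-7b-3p ranged from 0.321 to 2.47 CPM, with all groups overlapping and 1 library at or under the floor.

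C57BL/6 naive 4 and 5 differed from the other 12 libraries in miR-7 and in markers of several cell types at once. miR-7a-5p was 2962 and 2440.4 CPM against 702 to 1248, and miR-7b-5p was 308 and 267 against 76.1 to 208. miR-7a-1-3p was 22.6 and 49.3 CPM against 63.4 to 127. The summed neuronal list (11 of 11 listed) was 169546 and 181209 CPM against 111673 to 159217, with no member at 0. As a share of the library's total CPM, naive 4 (total 1311857) lay inside the range of the 12, and naive 5 (total 1085465) lay above it. The members of the neuronal list did not all lie high: miR-138-5p was 104665 and 113664 CPM against at most 94492, whereas miR-153-3p was 12.1 and 36.7 against 40.7 to 108. miR-124-3p, at 17965 and 12848 CPM, was below the median of the 12 (19848). The motor neuron list (2 of 2), nearly all of it miR-218-5p, was 260524 and 81356 CPM against 3486 to 17990. Its other member, miR-218-1-3p, was not high, at 3.45 and 5.08 CPM against 1.75 to 7.23. The epithelial list (7 of 7) was 1591 and 447 CPM against 217 to 384, and miR-122-5p, the hepatocyte miRNA, was 661 and 369 against 8.63 to 39.8. The myelinating glia list (4 of 4), led by miR-338-3p, was 8628 and 8044 CPM against 18222 to 45396. The part of these cell types in the miR-7 levels was not tested.

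**Figure D4:**
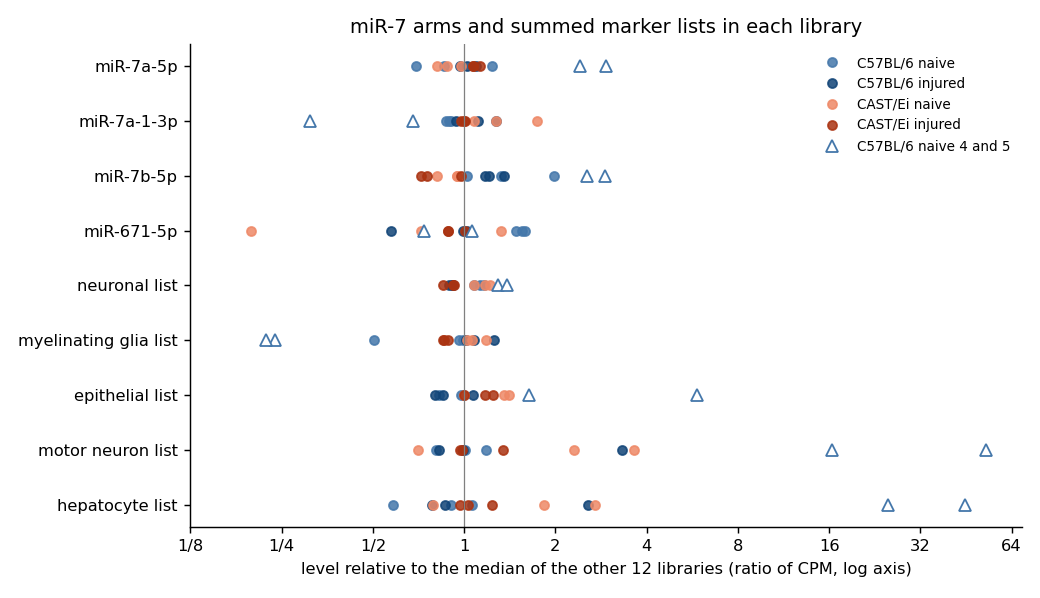
Levels of miR-7 arms, miR-671-5p and summed marker lists in each library, divided by the median of the 12 libraries other than C57BL/6 naive 4 and 5 (log axis, ratio of CPM). The open triangles, C57BL/6 naive 4 and 5, lie right of all circles for miR-7a-5p, miR-7b-5p and the neuronal, epithelial, motor neuron and hepatocyte lists, and left of all circles for miR-7a-1-3p and the myelinating glia list.

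The other lists overlapped the range of the 12 or lay near its edge in naive 4 and 5. The leukocyte list (8 of 10) was 7779 and 7781 CPM against 3812 to 7990, and the erythrocyte list (5 of 7) 7652 and 7369 against 7680 to 26474. Single members of these sums lay outside the range of the 12, in opposite directions. The leukocyte miR-142-3p was 226 and 400 CPM against 513 to 2114. The erythrocyte miR-486-3p was 583 and 466 CPM against 69.9 to 172. The skeletal muscle list (4 of 4) was 5488 and 15996 against 6359 to 13911. The endocrine list (4 of 4) was 216 and 194 CPM against 116 to 232. Of this, miR-129-5p, which the neuronal list also holds together with miR-153-3p, made up 197 and 152 CPM. miR-375-3p was 2.07 and 0.941 CPM, and 1 of the 12 had a list member at 0.

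In CPM, the summed neuronal list did not overlap between naive and injured libraries in either strain, and miR-138-5p made up most of the sum. It ran from 140452 to 181209 CPM in C57BL/6 naive and from 116950 to 119861 in C57BL/6 injured. It ran from 141403 to 159217 CPM in CAST/Ei naive and from 111673 to 121189 in CAST/Ei injured. As a share of the library's total CPM, the sum overlapped between naive and injured in both strains. In C57BL/6 naive 4 it was 169546 of 1311857, a smaller share than in C57BL/6 injured 2 (119861 of 924200). In CAST/Ei naive 3 it was 141403 of 1143936, a smaller share than in CAST/Ei injured 2 (111673 of 867581). miR-138-5p averaged 94686 and 62550 CPM in C57BL/6 naive and injured, and 88923 and 67700 in CAST/Ei naive and injured. It was lower after injury without overlap in both strains, as were 6.27% of the 638 miRNAs in C57BL/6 and 16.5% in CAST/Ei. After injury 6 of the 11 members had log2 differences above 0 in C57BL/6, and 1 of 11 in CAST/Ei. Of the 11 members 0 passed the limma test in any of the 4 injury and strain comparisons, and their median log2 differences were 0.10 and -0.41 for injury in C57BL/6 and CAST/Ei, and 0.27 and -0.04 for strain in naive and injured DRG. The medians of all 638 miRNAs were 0.12, -0.09, 0.12 and -0.06 in the same comparisons. In bulk ganglia, fewer cells of a type and less RNA per cell cannot be told apart.

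Relative to the median neuronal miRNA of its own library, the log2 level of miR-7a-5p was 0.58 higher in CAST/Ei injured than in CAST/Ei naive, with no overlap (exact permutation p = 0.1, adjusted p = 0.2). In C57BL/6 the difference was -0.50 (exact permutation p = 0.679, adjusted p = 0.679) and turned to 0.21 without naive 4 and 5 (adjusted p = 0.267). The strain difference of this ratio was -1.18 in naive DRG (exact permutation p = 0.0714, adjusted p = 0.2), or -0.48 without naive 4 and 5 (adjusted p = 0.267). In injured DRG it was -0.10 (exact permutation p = 0.4, adjusted p = 0.48). None of the 12 ratio tests passed after adjustment. Of the 3 kept endocrine miRNAs 0 passed any comparison.

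miR-671-5p, the partner of miR-7 in the Cdr1as circuit, ranked 135 to 298 of 1123 and did not pass any comparison. It stood at 480.2, 502, 511, 238 and 343 CPM in C57BL/6 naive 1 to 5 and at 186, 329 and 320.1 in C57BL/6 injured. It stood at 233, 427 and 64.1 CPM in CAST/Ei naive and at 326, 286 and 287 in CAST/Ei injured. CAST/Ei naive 3 was the lowest library by far, and in C57BL/6 naive the pair 4 and 5 was lower than libraries 1 to 3. The injury difference was -0.56 in C57BL/6 (adjusted p = 0.491 by limma) and 0.68 in CAST/Ei (adjusted p = 0.809). The strain difference was -1.10 in naive DRG (adjusted p = 0.122) and 0.15 in injured DRG (adjusted p = 0.985). Leaving out C57BL/6 naive 4 and 5, the C57BL/6 injury difference was -0.88 (adjusted p = 0.339) and the naive strain difference -1.42 (adjusted p = 0.0663). miR-671-3p averaged 3.86 to 6.86 CPM in the 4 groups and did not pass either.

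The members did not vary together once C57BL/6 naive 4 and 5 were set aside. Pearson's r of log2(CPM + 1) between miR-7a-5p and miR-7b-5p was 0.80 over all 14 libraries and 0.28 over the other 12. Between miR-7a-5p and miR-7a-1-3p it was -0.80 over 14 and -0.20 over 12, and between miR-7a-1-3p and miR-7b-5p -0.76 and -0.38. The same held for the miRNAs most like miR-7a-5p. Over 14 libraries they were miR-222-3p (r = 0.94), miR-28a-3p (0.90), miR-122-5p (0.90), let-7d-3p (0.89) and miR-141-3p (0.87), each high in naive 4 and 5. miR-222-3p, for example, was 5619 and 1383 CPM there against 126 to 413 in the other 12. Over the 12 they were miR-142b (r = 0.86), miR-147-3p (0.86), miR-142-3p (0.84), miR-411-5p (0.81) and miR-221-3p (0.78), and none of the names recurred. These correlations describe libraries that share scaling and group structure, and they carry no test.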

How the data were processed

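Small RNA from 14 DRG libraries was analysed. Per the labels' protocols, ganglia were dissociated, RNA was taken with the miRVana kit and libraries were made with the Ion Total RNA-Seq kit. Bowtie2 was used, per the submitters' processing notes. No version, build, miRNA release or batch is given in the sources used here. The deposited signal values, which the authors call CPM, total 867581 to 1311857 per library, so the library sizes were scaled and the values are not plain CPM as had been planned for. The same test was kept. In every library 100% of values are whole multiples of 1 read within 1e-06 reads, so whole reads were recovered from the deposited signal, least surely in C57BL/6 injured 1.

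limma 3.58.1 (R 4.3.3) was fitted with its trend option to log2(CPM + 1) of 638 miRNAs (5 CPM or more in 3 or more libraries), with 4 group means over 14 libraries. P-values are two-sided, adjusted by Benjamini and Hochberg over the 638 within each comparison, with a threshold of 0.05. Differences on this scale understate changes at low CPM. Ratios within a library were tested by exact two-sided permutation (scipy 1.17.1), adjusted over 12 tests. The smallest p was 0.0357 for 5 against 3 libraries and 0.1 for 3 against 3. No ratio test could therefore reach an adjusted p of 0.05, whatever the values. The script was tested on simulated data. Libraries of 1 group differed by more than counting noise (chi-square per degree of freedom at least 58.1), so none was counted as a repeat sequencing of another. Whether 2 libraries share an animal or RNA cannot be read from this check, which covers counting noise only. edgeR 4.0.16 and DESeq2 1.42.0 on the recovered reads were alternatives, and edgeR called 32, 8, 77, 21 and 1 miRNAs for injury in C57BL/6 and in CAST/Ei, strain in naive and in injured DRG, and the interaction (limma 20, 7, 71, 21 and 0).

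Deviations of same-numbered naive libraries of the strains correlated only weakly (r = 0.104 to 0.114 over 3 pairs), and no label pairs them. Without C57BL/6 naive 4 and 5 these values were 0.315, 0.001 and 0.170. The other comparisons gave r from -0.19 to 0.31. No comparison was treated as paired in the main fit, and the replicate block was an alternative.

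All arms of miR-7a and miR-7b, miR-671 and the 5 miRNAs most correlated with miR-7a-5p, over 14 and over 12 libraries, are named. Members, marker lists, tests and alternatives were chosen with earlier results of these data known, and the averaged strain comparison was added after the values were seen.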

Additional observations from a re-analysis of the deposited data

Results flagged for a closer look

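The injury effect on miR-7a-1-3p differed in direction between the strains. Every C57BL/6 injured library (68.5 to 93.0 CPM) was above every C57BL/6 naive library (22.6 to 65.8), and every CAST/Ei injured library (71.3 to 73.1) was below every CAST/Ei naive library (78.7 to 127). As a share of reads the CAST/Ei groups overlapped, with 0.00822% in CAST/Ei injured 2 and 0.00811% in CAST/Ei naive 2. Of the 638 miRNAs, 8.62% separated upward in CPM in C57BL/6 and 16.5% downward in CAST/Ei, and the share with both was not counted. The median difference between the effects over the 638 was -0.20. For miR-7a-1-3p the difference between the effects was -1.10 on the log2 scale and did not pass the test (adjusted p = 0.529 by limma). The C57BL/6 injury difference was 0.68, or 0.30 without C57BL/6 naive 4 and 5, and the difference between the effects was then -0.73 (adjusted p = 0.437).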

How the results depend on the processing

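The lower miR-7b-5p in naive CAST/Ei passed in 10 of 27 alternatives and was negative in all of them (adjusted p 0.00208 to 0.191). It missed the threshold at -0.98 with a pseudocount of 5 (adjusted p = 0.0510), at -1.01 with no filter (0.0543) and with only the groups compared (0.191), and at -0.63 with array weights (0.118). It was -0.62 both without C57BL/6 naive 4 and 5 (0.103) and with the replicate block (0.10). Leaving out each library gave -1.21 to -0.84. In injured DRG it passed at -0.61 with only the groups compared (adjusted p = 0.0294) and at -0.60 with array weights (0.0161). The averaged strain difference passed in 16 of 26 alternatives, was -0.91 with edgeR without C57BL/6 injured 1 (adjusted p = 0.0518), and -0.91 to -0.72 leaving out each library. For miR-7a-1-3p the naive strain difference was 0.68 to 1.11 leaving out each library.

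Signs changed for miR-7a-5p. Its C57BL/6 injury difference was 0.0574 with array weights, and 0.18 without C57BL/6 naive 4 and 5 and with the replicate block. Its averaged strain difference was 0.0108 with array weights, and 0.0307 without those libraries and with the replicate block. Its C57BL/6 injury difference against the neuronal median was 0.21 without them. For miR-7b-5p the CAST/Ei injury difference was 0.11 when every library had the same total and 0.0879 with the total without the 3 most abundant miRNAs. The cause was not tested. The replicate block changed no other call on a miR-7 arm. It moved the number of miRNAs passing from 20 to 37 for injury in C57BL/6, 7 to 21 in CAST/Ei, 71 to 111 and 21 to 36 for strain in naive and injured DRG, and 51 to 121 for the average, and 0 passed for the interaction. Same-numbered libraries correlated best with each other in 1, 2, 2 and 1 of 3 pairs for these first 4 comparisons. Over all alternatives these numbers ran from 3 to 79, 3 to 32, 21 to 148, 15 to 109 and 33 to 140, and 0 to 9 for the interaction. Depth limits the 3p arms of Mir7-2 and Mir7b, with 114 and 143 reads in all.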
